A study of Homo sapiens with 4 samples.

Results

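The genes described here encode subunits of RNA polymerase (Pol) I, II and III, the 3 nuclear enzymes that make RNA from DNA. Members were chosen by gene symbol alone: every row of the deposited table whose name begins with POLR1, POLR2 or POLR3, and the rows named CD3EAP, ZNRD1 and TWISTNB, older symbols of Pol I subunits. The rule found 33 of 22361 rows, and 33 of 33 passed the filter on low values that left 14601 genes to test. No measured value entered the rule, but the family was picked out with results of the same comparison known, so the counts below are a description. The series holds RNA-seq libraries, 4 in all, from Jurkat cells, a human line derived from a T-cell acute lymphoblastic leukaemia. For 2 of them cells were infected with lentivirus that expressed an shRNA targeting the long non-coding RNA ARIEL (knockdown), and for the other 2 with lentivirus that expressed an shRNA targeting GFP (control). Infected cells of both groups were kept in puromycin at 0.7 µg/ml for 36 h or longer and were collected 72 h after infection. The labels name 1 cell line, give no shRNA sequence, and do not say that replicates were separate cultures, so p-values here reflect the spread between libraries only, and that spread may be technical.

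Pol I makes the large precursor of ribosomal RNA, and Pol II makes messenger RNA and many non-coding RNAs. Pol III makes transfer RNA, the smallest ribosomal RNA and other short RNAs. Each enzyme has a pair of large subunits that form the active site, a platform on which the core is put together, and a stalk; a set of small subunits is shared by all of them. Pol III also has a detachable initiation subcomplex in which POLR3G and POLR3GL are alternatives to each other, POLR3G being the form known from stem cells and many tumour cells and POLR3GL the more widely expressed one.

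The values are regularised log (rlog) levels on the log2 scale, which pull differences towards 0 and so understate a change; the read totals are unknown. The locus XLOC_005968 on chromosome 10, taken here for ARIEL although the table does not name it, had rlog levels of 10.58 and 10.55 in the knockdown libraries, against 12.02 and 11.91 in the control libraries. In the authors' deposited table its fold change was 6.50-fold lower in the knockdown. Of 11 T-cell identity genes listed, 9 were in the table and all 9 had rlog levels over 10, with a summed level on the log2 scale of 18.09 to 18.12 in knockdown libraries and 18.17 to 18.18 in control libraries. That sum is led by LCK; singly, 1 of the 9 was called higher (CD247) and 4 lower, CD3G by 0.30, CD28 by 0.26, TAL1 by 0.23 and CD2 by 0.15 on the rlog scale (6 lower once trends on transcript GC content and length were taken out). Of 12 markers of other cells, 11 were in the table, 9 were below an rlog of 4 in every library and EPCAM and MS4A1 were listed at 0. The B-cell gene CD79A was above 10, at 11.23 and 11.25 in the knockdown and 10.91 and 10.99 in the control (called higher), and the collagen gene COL1A1 was at 7.20 and 7.21 against 7.36 and 7.41 (called lower). The list's summed level, nearly all of it CD79A, was 11.34 to 11.36 in knockdown libraries against 11.06 to 11.14 in control libraries. The part of these markers in the results below was not tested. Spike-in RNA had been added by cell number, but the table holds 0 spike-in rows, and what the size factors behind the rlog levels were computed from is unknown. Whether a difference is relative to the other RNA of a library or per cell therefore cannot be told apart here. In such bulk samples fewer cells that express a gene and less of its RNA per cell cannot be told apart.

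Most polymerase subunits that differed were modestly higher in ARIEL knockdown cells, and 1 subunit was much lower. By limma, a linear model that shares the estimate of spread across genes, 16 of 33 subunits were higher and 2 were lower at a Benjamini-Hochberg adjusted p under 0.05; 15 were not called. Over all genes tested, 44.4% were called, 22.1% as higher and 22.4% as lower. The subunits thus had 48.5% higher calls and 6.06% lower calls, and their median difference in rlog (knockdown minus control) was 0.08, against 0.00 over all genes. The differences of the 33 subunits ran between -0.72 for POLR3GL and 0.31 for POLR2G. Their standard errors, from the spread shared across genes, were 0.03 to 0.05. Both knockdown libraries lay above both control libraries for 19 subunits and below both for 7, and the groups overlapped for the other 7; over all genes these shares were 35.6% above and 35.1% below. In the authors' deposited table, the same 18 subunits passed an adjusted p of 0.05, 16 higher and 2 lower, beside 20.1% higher and 19.3% lower among 14551 genes with an adjusted p. The calls rest on a spread shared between genes: with each gene's own variance, limma's adjusted p passed for 0 subunits, though 15 of 33 had an unadjusted p under 0.05, against 31.2% of all genes.

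**Figure D1:**
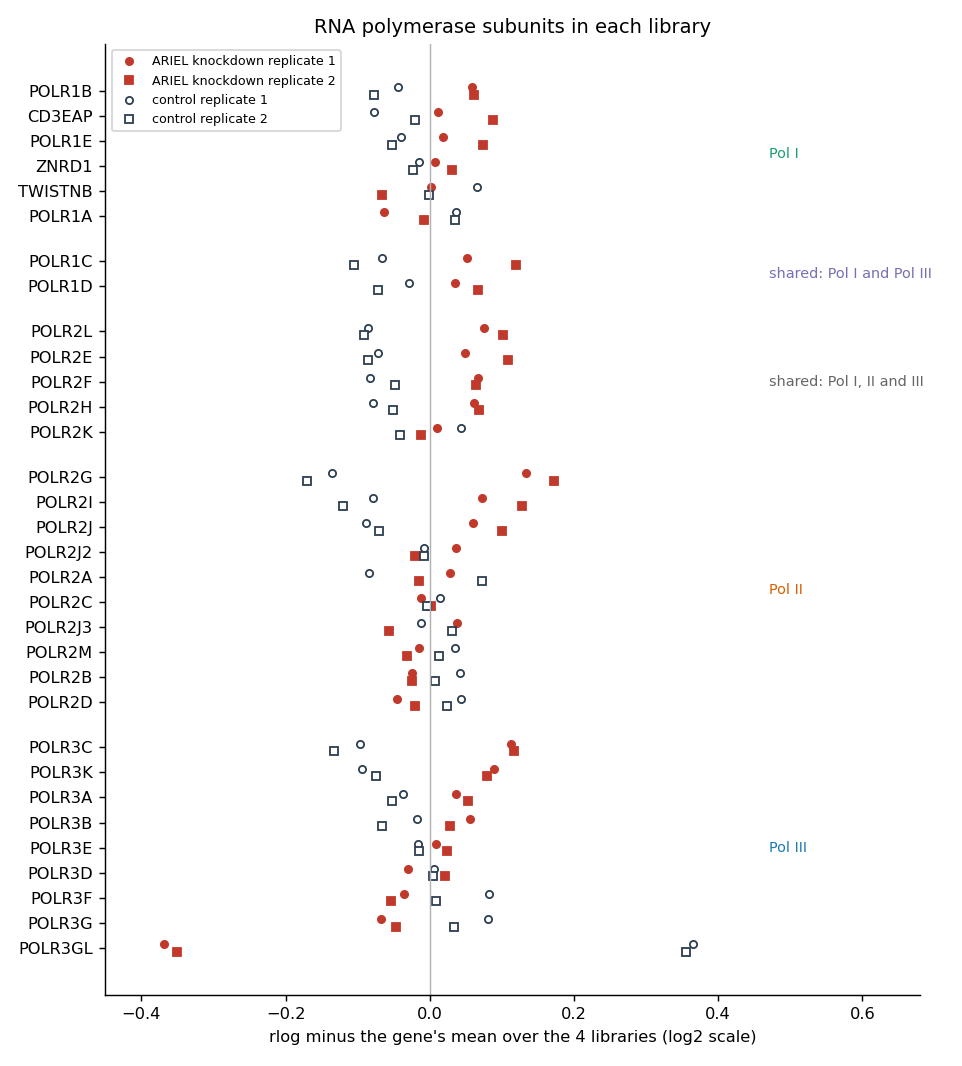
Level of each polymerase subunit in each library, as rlog minus the gene's mean over the 4 libraries (x axis, log2 scale), with subunits in rows by polymerase; filled red symbols are the 2 ARIEL knockdown libraries and open symbols the 2 control libraries. Of the 32 subunits drawn, the knockdown symbols lie to the right of the control symbols for 18 and to the left for 7, with POLR3GL far outside the range of the rest.

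POLR3GL, a subunit of the Pol III initiation subcomplex, had rlog levels of 10.75 and 10.77 in knockdown libraries, against 11.48 and 11.47 in control libraries. The knockdown libraries were low and the groups were far apart, with at most 0.02 between replicates. The difference was -0.72 ± 0.04 (SE, n = 2 libraries each; limma adjusted p = 1.19e-64). The authors' deposited table gives POLR3GL a larger change, 2.61-fold lower in the knockdown (log2 fold change -1.39). It was called in every alternative fit but the one with each gene's own variance, where its adjusted p of 0.0748 was the lowest of all subunits. POLR3GL lies on chr1:145964702-145978848 (GRCh38, GENCODE 29, plus strand). By GENCODE 29 it shares 11.7% of its 100-base windows with the overlapping transcript AC243547.3 on the same strand. Reads from those windows may be ambiguous, but the annotation behind the deposited levels is not given in the sources used here.

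POLR3G, the alternative to POLR3GL, had rlog levels of 11.64 and 11.66 in knockdown libraries and 11.79 and 11.74 in control libraries. The groups did not overlap, and the difference was -0.11 ± 0.04 (SE; limma adjusted p = 0.00871). The call did not hold without control replicate 1 (-0.09, adjusted p = 0.0912) or without ARIEL knockdown replicate 1 (-0.10, adjusted p = 0.0990). POLR3G is also the subunit with the lowest transcript GC content, 34.3%, and with each library's trend on GC content and transcript length removed its difference was 0.01. Set against each other within a library, POLR3GL minus POLR3G was -0.89 and -0.90 rlog in the knockdown, against -0.31 and -0.27 in the control. Per kilobase of transcript, the level of POLR3GL was 1.52 times that of POLR3G in both knockdown libraries, against 2.28 and 2.34 times in control libraries. By rlog levels POLR3GL thus stayed the higher of the pair per length in all 4 libraries, by a smaller margin in the knockdown. These ratios rest on rlog levels, which understate a change, and on 1 transcript length per gene. The authors' deposited table gives log2 fold changes further apart, -1.39 for POLR3GL and -0.21 for POLR3G. By those folds the margin in the knockdown would be smaller still, so which of the pair is higher there is uncertain.

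The other members of the initiation subcomplex differed among themselves. POLR3C, its largest component, had rlog levels of 12.43 and 12.44 in knockdown libraries, against 12.23 and 12.19 in control libraries. Both knockdown libraries were higher, and POLR3C rose by 0.23 ± 0.04 (SE; limma adjusted p = 1.61e-09), the largest rise among Pol III subunits. POLR3F, which bridges the subcomplex to other initiation factors, had levels of 10.76 and 10.74 against 10.88 and 10.80, a difference of -0.09 with an adjusted p of 0.0750. The POLR3F groups did not overlap, in the same direction as POLR3GL; it passed without control replicate 2 (-0.13, adjusted p = 0.0249) and with no trend of the spread on level (adjusted p = 0.0480), and was -0.06 with the GC and length trend removed (adjusted p = 0.164). POLR3C (chr1:145824088-145842505, plus strand) and POLR3GL lie on the same chromosome and strand and moved in opposite directions: POLR3C minus POLR3GL was 1.69 and 1.67 rlog in the knockdown and 0.74 and 0.72 in the control.

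**Figure D2:**
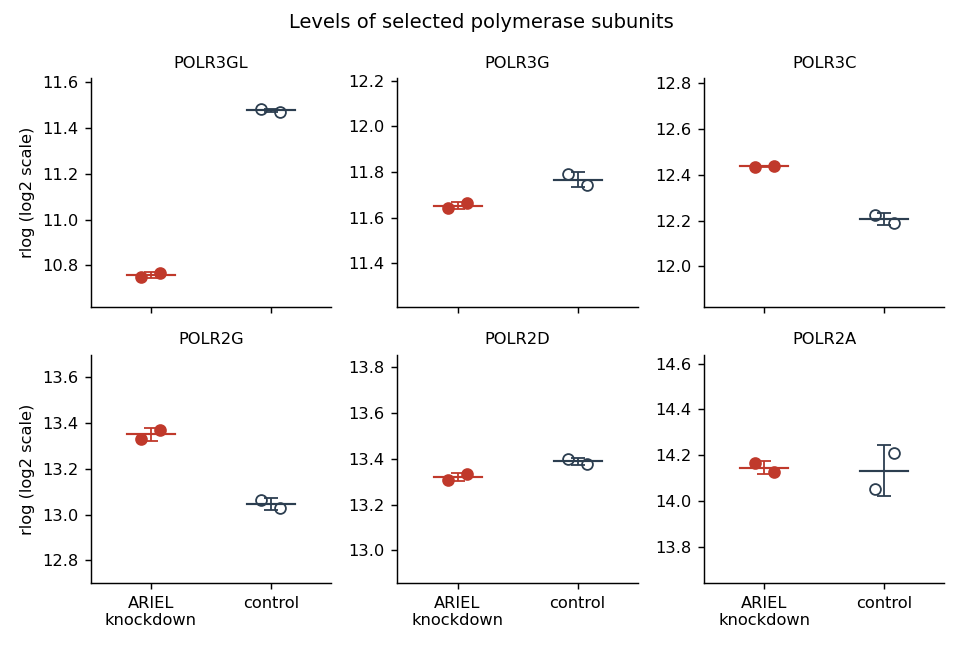
rlog level (y axis, log2 scale) of 6 subunits in ARIEL knockdown (left, filled) and control (right, open) libraries; points are libraries, lines are means and bars are SD (n = 2), and every panel spans the same height on the log2 scale. POLR3GL shows the widest gap, POLR3C and POLR2G are higher in the knockdown, and the 2 control libraries of POLR2A lie 0.16 apart, on both sides of the knockdown libraries.

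The active site of Pol III is formed by POLR3A and POLR3B. POLR3A had rlog levels of 12.99 and 13.01 in knockdown libraries, against 12.92 and 12.90 in control libraries, and rose by 0.09 ± 0.03 (SE; limma adjusted p = 0.0203). The groups did not overlap, but the call was lost without control replicate 2 (0.08, adjusted p = 0.0746), without ARIEL knockdown replicate 1 (0.10, adjusted p = 0.0789) and without ARIEL knockdown replicate 2 (0.08, adjusted p = 0.172). With the GC and length trend removed POLR3A was higher by 0.12 (limma adjusted p = 1.6e-05). POLR3B had levels of 11.40 and 11.38 in the knockdown and 11.33 and 11.28 in the control. These groups were also separate, with a difference of 0.08 and an adjusted p of 0.0762, which passed without control replicate 1 (0.11, adjusted p = 0.0483). POLR3A minus POLR3B stayed between 1.59 and 1.63 rlog over the 4 libraries, with the groups overlapping.

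Of the remaining Pol III subunits, the zinc-ribbon subunit POLR3K, which takes part in RNA cleavage and termination, rose by 0.17 (limma adjusted p = 0.000189). POLR3D and POLR3E, which pair with each other on the core in the manner of a general initiation factor, differed by -0.01 and 0.03 and were not called. Together, 4 of 10 Pol III-specific subunits were higher and 2 lower, beside 22.1% higher and 22.4% lower over all genes. Their median difference was 0.06. POLR3K overlaps SNRNP25, which was higher by 0.15, on the opposite strand. The libraries were made strand-specific, but whether the counting used strand is not given in the sources used here, so reads of such pairs may be mixed.

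Among the subunits found only in Pol I, the pair that forms the active site did not move together. POLR1B, the second-largest subunit, had rlog levels of 13.06 and 13.06 in knockdown libraries, against 12.95 and 12.92 in control libraries. It rose by 0.12 ± 0.03 (SE; limma adjusted p = 0.00130). POLR1A, the largest subunit, had levels of 14.22 and 14.27 in the knockdown and 14.32 and 14.31 in the control. The POLR1A groups did not overlap either, in the other direction, with a difference of -0.07 and an adjusted p of 0.0568; with the GC and length trend removed it was -0.06 and passed (adjusted p = 0.0232). POLR1A minus POLR1B was 1.16 and 1.21 rlog in knockdown libraries, against 1.36 and 1.39 in control libraries.

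CD3EAP and POLR1E form a dimer on Pol I that acts in initiation and elongation. CD3EAP had rlog levels of 12.00 and 12.08 in knockdown libraries, against 11.91 and 11.97 in control libraries, and rose by 0.10 ± 0.04 (SE; limma adjusted p = 0.0210). Its partner POLR1E rose by 0.09 (limma adjusted p = 0.0152). Neither call was firm: CD3EAP was not called without control replicate 1 (0.07, adjusted p = 0.189), without ARIEL knockdown replicate 2 (0.06, adjusted p = 0.393) or after quantile normalisation (0.09, adjusted p = 0.0676). POLR1E was not called without control replicate 2 (0.09, adjusted p = 0.0598) or without ARIEL knockdown replicate 2 (0.06, adjusted p = 0.299). Both stayed called with the GC and length trend removed, at 0.08 each (limma adjusted p = 0.0155 for CD3EAP and 0.00174 for POLR1E). CD3EAP overlaps ERCC1 on the opposite strand, a repair gene that was higher by 0.22. The stalk subunit TWISTNB, which contacts the initiation factor RRN3, differed by -0.06 and passed only without control replicate 2 (-0.10, adjusted p = 0.0325) among the fits that left out a library. ZNRD1, the RNA-cleavage subunit, differed by 0.04 and was not called. Of the 6 Pol I-specific subunits, 3 were higher and 0 lower, beside 22.1% higher and 22.4% lower over all genes.

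POLR1C and POLR1D, which pair as the assembly platform of both Pol I and Pol III, were higher. POLR1C had rlog levels of 12.37 and 12.44 in knockdown libraries, against 12.26 and 12.22 in control libraries, and rose by 0.17 ± 0.04 (SE; limma adjusted p = 9.54e-06). POLR1D had levels of 13.65 and 13.69 in the knockdown and 13.59 and 13.55 in the control, and rose by 0.10 ± 0.03 (SE; limma adjusted p = 0.00568). The groups were separate for both genes. The POLR1D call was lost without control replicate 2 (0.08, adjusted p = 0.0771), without ARIEL knockdown replicate 2 (0.09, adjusted p = 0.129) and with the GC and length trend removed (0.04, adjusted p = 0.171). POLR1C overlaps XPO5, a nuclear export receptor that was higher by 0.13, and YIPF3, a Golgi protein gene that was lower by 0.09, both on the opposite strand.

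Of the 5 subunits shared by all 3 polymerases, 4 were higher and 0 lower, beside 22.1% higher and 22.4% lower over all genes. Their median difference was 0.13, or 0.08 with the GC and length trend removed. POLR2L, a small core subunit that helps hold the assembly platform in place, had rlog levels of 12.44 and 12.47 in knockdown libraries, against 12.28 and 12.27 in control libraries, and rose by 0.18 ± 0.04 (SE; limma adjusted p = 4.45e-06). POLR2E, the subunit of the DNA-gripping jaw, had levels of 12.36 and 12.42 in the knockdown and 12.24 and 12.23 in the control. It rose by 0.16 ± 0.04 (SE; limma adjusted p = 5.82e-05), and the groups of both genes were separate. POLR2F and POLR2H, small subunits that stabilise the core, rose by 0.13 each (limma adjusted p = 0.000882 for POLR2F and 0.000276 for POLR2H). With the trend removed these 4 remained called, with smaller differences: 0.09 for POLR2L, 0.11 for POLR2E, 0.08 for POLR2F and 0.06 for POLR2H. POLR2K was the exception, with a difference of 0.00 and overlapping groups; its transcript GC content was 36.6%, against 57.0% to 60.1% in the other 4, and with the GC and length trend removed it was higher by 0.06 (adjusted p = 0.0285). Only POLR2L overlaps a called gene of the table, CD151, a membrane protein gene that was higher by 0.11.

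Among the Pol II-specific subunits, 3 of 10 were higher and 0 lower, beside 22.1% higher and 22.4% lower over all genes. The median difference was 0.00. These 10 include POLR2M and the copies POLR2J2 and POLR2J3, described below. POLR2G, a stalk subunit, had rlog levels of 13.33 and 13.37 in knockdown libraries, against 13.06 and 13.03 in control libraries. Both knockdown libraries were higher, and POLR2G rose by 0.31 ± 0.03 (SE; limma adjusted p = 9.88e-19), the largest rise of the family. The fold change of POLR2G in the authors' deposited table was 1.47-fold higher in the knockdown. Its stalk partner POLR2D had levels of 13.31 and 13.33 in the knockdown and 13.40 and 13.38 in the control, a difference of -0.07 with an adjusted p of 0.0827. POLR2G minus POLR2D was therefore 0.02 and 0.04 rlog in the knockdown, against -0.34 and -0.35 in the control.

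POLR2I, which takes part in proofreading and cleavage of the RNA, had rlog levels of 12.30 and 12.36 in knockdown libraries, against 12.15 and 12.11 in control libraries. It rose by 0.20 ± 0.04 (SE; limma adjusted p = 2.69e-07); the difference was 0.12 once the GC and length trend was taken out. POLR2I overlaps TBCB, a tubulin-folding gene that was higher by 0.23, on the opposite strand. The active-site subunits of Pol II were not called. POLR2A, the largest subunit, whose tail is phosphorylated during transcription, had levels of 14.17 and 14.12 in the knockdown and 14.05 and 14.21 in the control. Its control libraries lay 0.16 apart, the widest gap between replicates of any subunit in either group, and its difference of 0.01 was -0.07 without control replicate 1 and 0.09 without control replicate 2, where it passed (adjusted p = 0.0400). POLR2B had levels of 15.33 and 15.33 in the knockdown and 15.40 and 15.36 in the control, a difference of -0.05 with an adjusted p of 0.210.

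POLR2J and POLR2C form the assembly platform of Pol II. POLR2J had rlog levels of 11.63 and 11.67 in knockdown libraries, against 11.48 and 11.50 in control libraries, and rose by 0.16 ± 0.04 (SE; limma adjusted p = 0.000222); the difference was 0.10 once the GC and length trend was taken out. POLR2C differed by -0.01 and was not called. The near-identical copies POLR2J2 and POLR2J3 showed no such difference. POLR2J2 had levels of 4.87 and 4.81 in the knockdown and 4.82 and 4.82 in the control, and POLR2J3 had 8.94 and 8.85 against 8.89 and 8.94. The values of the copies are uncertain, since 25.5% of the 100-base windows of POLR2J, 100% of those of POLR2J2 and 91.8% of those of POLR2J3 occur in another gene. POLR2J also overlaps LRWD1, a replication-factor gene that was higher by 0.24, on the opposite strand. POLR2M, a Pol II-associated protein that holds back elongation, differed by -0.05 and was not called, and it shares 1189 of its 4100 windows with GCOM1, a read-through locus.

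**Figure D3:**
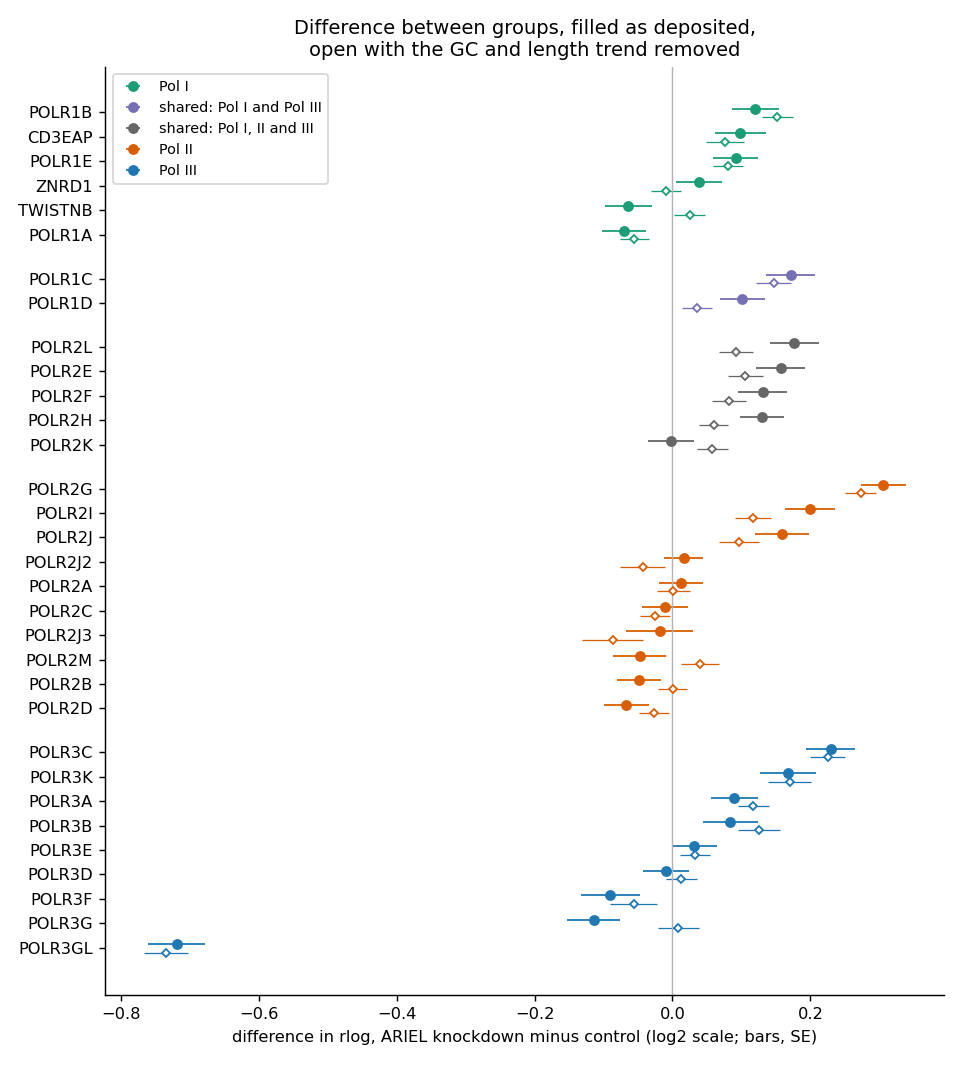
Difference in rlog, ARIEL knockdown minus control (x axis, log2 scale), for 32 subunits in rows by polymerase. Filled circles are the values as deposited and open diamonds the values with the GC and length trend of each library removed. Bars are 1 SE from limma's spread shared across genes, not from the gene's own libraries alone. The shared subunits POLR2L, POLR2E, POLR2F and POLR2H move towards 0 once the trend is removed, POLR3G moves to 0.01, and POLR3GL and POLR2G stay at the 2 ends.

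Differences between these libraries followed the base composition of the transcripts. Over 12719 genes the Spearman correlation of the difference with transcript GC content was 0.40, and the same correlation for replicate 2 minus replicate 1 was 0.41 in the knockdown and 0.59 in the control, so libraries of 1 group differed in this way too. Over the 33 subunits it was 0.52 for the group difference. These are correlations across genes measured in the same 4 libraries and are given as a description. Of the 10 subunits with a GC content of 55% or more, 8 were higher and 0 lower, where 38.8% of all genes of that GC content were higher and 9.65% lower. Of the 7 subunits under 45%, 0 were higher and 1, POLR3G, was lower, where 9.84% of all such genes were higher and 37.7% lower. With the trend removed, 17 of 33 subunits were higher and 2 lower (POLR3GL and POLR1A), beside 27.7% higher and 25.4% lower among all genes with a known transcript, and the median over the subunits was 0.06. POLR1D and POLR3G were no longer called as before, while POLR3B (0.12) and POLR2K joined the higher subunits. POLR3GL (-0.74), POLR2G (0.27), POLR3C (0.23), POLR3K (0.17) and POLR1B (0.15) had differences close to those on the values as deposited. POLR3A had a larger difference with the trend removed, 0.12 against 0.09. The remaining called subunits shrank but stayed past the threshold, among them POLR2I at 0.12, POLR2J at 0.10, POLR2L at 0.09, POLR2F at 0.08 and POLR2H at 0.06.

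**Figure D4:**
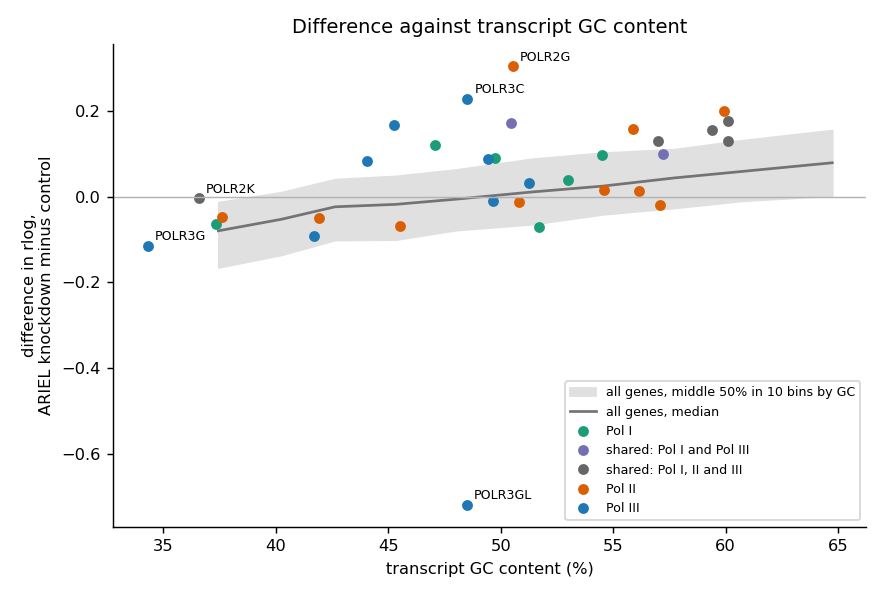
Difference in rlog, ARIEL knockdown minus control (y axis, log2 scale), against transcript GC content (x axis, percent) for 32 subunits (points, coloured by polymerase) and for all genes in 10 bins by GC content (grey line, median of each bin; grey band, middle 50%). The line rises with GC content, most subunits with high GC content lie on or above the band's middle, and POLR3GL, POLR2G and POLR3C are among the subunits farthest from the band.

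Taken per kilobase of transcript, with rlog minus the log2 of the length in kilobases, the subunits covered a wide range. POLR2G stood at 13.63 in the knockdown and 13.32 in the control, beside ZNRD1 at 13.49 and 13.45 and POLR1D at 13.45 and 13.35. The large subunit POLR2B was also in this range, at 13.29 and 13.34, while POLR2A was at 11.39 and 11.38. The lowest members were POLR2J2 at 6.36 and 6.35, POLR2J3 at 8.96 and 8.98 and POLR3B at 9.29 and 9.21. Each length is that of 1 reference transcript, so these levels shift where cells use another isoform.

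Factors that work with each polymerase were read from the same fit, in lists chosen by function. The counts below stand beside 22.1% higher and 22.4% lower over all genes, and those with the GC and length trend removed beside 27.7% higher and 25.4% lower. Of 7 factors of Pol I initiation and termination, 1 was higher and 4 were lower, with a median difference of -0.08. RRN3, which brings Pol I to its promoter, had rlog levels of 13.07 and 13.09 in knockdown libraries, against 13.40 and 13.33 in control libraries, and fell by 0.28 (limma adjusted p = 2.83e-16). TAF1D, TAF1B and TTF1 were also lower, of which TAF1D fell by 0.15, while TAF1C rose by 0.11; TAF1B, TAF1C and TAF1D belong to the factor that selects the ribosomal DNA promoter, and TTF1 acts in termination. With the GC and length trend removed, 0 of these 7 were higher and 3 lower. RRN3 differed in the opposite direction to POLR1B, while the Pol I activator UBTF differed by 0.03 and was not called.

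Of 16 factors that start or repress Pol III transcription, 4 were higher and 3 (18.8%) lower, close to the shares over all genes. The counts were the same with the trend removed. SNAPC2, a subunit of the complex that binds small nuclear RNA promoters, had levels of 11.25 and 11.34 in the knockdown, against 11.01 and 11.02 in the control, and rose by 0.28 (limma adjusted p = 1.07e-10), or 0.19 with the trend removed. GTF3C4, a subunit of the factor that binds inside transfer RNA genes, had levels of 12.88 and 12.87 against 13.11 and 13.06 and fell by 0.21 (limma adjusted p = 2.33e-09). BRF1, a core initiation factor of Pol III, and MAF1, the repressor that binds Pol III and keeps it from that factor, rose by 0.12 each; with the trend removed BRF1 was higher by 0.06 and MAF1 differed by 0.04 and was not called.

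For Pol II, 5 of 18 general transcription factors were higher and 2 lower, and 10 were higher and 2 lower with the trend removed. GTF2A1, which steadies the TATA-binding protein on DNA, had levels of 12.88 and 12.82 in knockdown libraries, against 13.23 and 13.14 in control libraries, and fell by 0.33 (limma adjusted p = 9.30e-22), or by 0.21 with the trend removed. GTF2E1 fell by 0.26 while GTF2E2, the other subunit of the same factor, rose by 0.18. Of 19 elongation factors, 6 were higher and 4 lower, and 9 were higher and 4 lower with the trend removed. NELFCD, a subunit of the complex that pauses Pol II near the promoter, had levels of 13.49 and 13.49 in the knockdown, against 13.18 and 13.17 in the control, and rose by 0.31 (limma adjusted p = 5.28e-20); NELFA and NELFE of the same complex rose by 0.13 and 0.11. AFF4, a scaffold of the super elongation complex, fell by 0.14, and CCNT1, the cyclin of the pause-release kinase, fell by 0.13. With the trend removed these 4 were still called, at 0.07 for NELFA, 0.05 for NELFE, -0.07 for AFF4 and -0.06 for CCNT1. Of 13 kinases, phosphatases and partner proteins of the POLR2A tail, 0 were higher and 2 lower. That is 15.4% called, against 44.4% of all genes. The cyclin CCNK and the tail-binding proteins RPRD1A and RPRD1B are counted in this list and were not called. The phosphatase CTDSPL had levels of 11.22 and 11.27 against 11.75 and 11.77 and fell by 0.51 (limma adjusted p = 3.17e-36), and RPAP2 fell by 0.09. With the trend removed 1 was higher and 4 lower in this list, and RPAP2 was at -0.03 and not called (adjusted p = 0.298).

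Of 13 assembly and import factors, 6 were higher and 3 lower, and 6 were higher and 1 lower with the trend removed. RUVBL1, an ATPase of the chaperone complex that assembles polymerases, had levels of 13.98 and 14.02 in the knockdown, against 13.86 and 13.79 in the control, and rose by 0.17 (limma adjusted p = 4.40e-07), while URI1, a prefoldin-like partner in the same process, had levels of 13.26 and 13.20 against 13.46 and 13.40 and fell by 0.20 (limma adjusted p = 1.39e-08). Of the mitochondrial polymerase list, 4 of 5 genes were tested. The polymerase POLRMT had levels of 13.03 and 13.05 against 12.82 and 12.89 and rose by 0.19 (limma adjusted p = 2.30e-07; 0.11 with the trend removed), and TFAM, which packages and starts transcription of mitochondrial DNA, had 13.48 and 13.41 against 13.87 and 13.79 and fell by 0.39 (limma adjusted p = 4.09e-31). Over all 86 partner factors tested, 23 (26.7%) were higher and 18 (20.9%) lower, with a median difference of 0.02. With the trend removed 31 were higher and 18 lower. The counts shifted when a library was left out, as did those over all genes.

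Sequences of the subunits at the ends of the range are given because an earlier reading of these data had singled out 4 words of 7 bases in 3′ untranslated regions, GATGACA and AGATGAC in genes that were lower and TGTTGTC and GTTGTCA in genes that were higher. The words were chosen on these libraries, so their presence is a description. Windows of 30 bases (GENCODE 29 transcripts, sense strand, word in capitals) follow for POLR3GL, POLR2G and POLR3G:
POLR3GL, base 138 after the stop codon: gaatagaggatGATGACAgtttattttcta
POLR3GL, base 280: tgttagagctgAGATGACtgtacacatacc
POLR2G, base 59: cacacttatcaTGTTGTCcagaggtccagt
POLR3G, base 1624: gtttaaaggaaGTTGTCAaaaaattttaag
POLR3G, base 1698: cctcacaaaaaGTTGTCAtttgcggttgat

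The words did not sort the subunits by direction. One or both of the first pair occurred in 7 of 30 subunits with an annotated 3′ untranslated region, against 14.2% of 12455 genes. Among them POLR3GL was lower, POLR2J was higher, and POLR1A, POLR2D, POLR3D and POLR3E were not called. One or both of the second pair occurred in 6 subunits, against 16.05% of genes: POLR2G and POLR3A were higher, POLR3G, which has GTTGTCA at 2 places, was lower, and POLR1A, POLR2D and POLR3D were not called. A longer region can hold a word more often, and these shares were not adjusted for length. Regions with a word ran from 203 bases in POLR2G to 7207 bases in POLR1A.

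Promoters were read for the 24 of 33 subunits in the RefSeq promoter table used here (GRCh38.p14; 11 called higher, 1 lower and 12 not called), over the 250 bases before each annotated start and on both strands. The E-box CACGTG bound by MYC-family factors was in 3 of 24 subunits (CD3EAP, POLR3A and POLR3C, all called higher), against 7.73% of 27305 genes. Those 27305 genes include genes that were not tested here, while all the subunits had passed the filter on low values. The shares are therefore not matched for expression. The ETS-family word CCGGAAG was in 7 (5 higher, 2 not called), against 10.2%, and the NRF1 core GCGCATGC was in 4 (2 higher, 2 not called), against 3.22%. CCAAT was in 6 subunits (3 higher, 1 lower, 2 not called), against 37.0% of genes, TATAAA in POLR2M alone, against 13.0%, and the GATA-family word AGATAA in 0, against 11.1%. These matches are letters in a window and do not show binding. The calls given with the words stand beside 22.1% higher and 22.4% lower over all genes tested. Shares called among all genes with each word were not computed, so a link between word and call was not tested. The windows of POLR3GL, the subunit that fell most, and of POLR3A, a higher subunit with an E-box, are printed with the matches in capitals (CCAAT and its reverse complement in POLR3GL, CCGGAAG and CACGTG in POLR3A):
POLR3GL, chr1:145964440-145964689, plus strand: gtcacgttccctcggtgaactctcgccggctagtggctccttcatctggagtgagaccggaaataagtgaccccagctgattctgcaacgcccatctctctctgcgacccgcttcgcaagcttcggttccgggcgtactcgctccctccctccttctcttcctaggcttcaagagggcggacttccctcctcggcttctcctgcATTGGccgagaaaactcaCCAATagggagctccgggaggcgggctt
POLR3A, chr10:78029516-78029765, minus strand: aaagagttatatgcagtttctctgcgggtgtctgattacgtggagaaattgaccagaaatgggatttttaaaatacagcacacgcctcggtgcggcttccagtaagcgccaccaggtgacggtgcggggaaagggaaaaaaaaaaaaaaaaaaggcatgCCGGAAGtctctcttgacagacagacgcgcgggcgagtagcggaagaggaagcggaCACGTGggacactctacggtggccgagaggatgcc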

How the data were processed

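RNA of 4 Jurkat libraries (2 ARIEL knockdown, 2 control) was sequenced strand-specifically as 100-base pairs, per the labels' protocols. The table deposited by the authors has, per the file headers, an rlog level on the log2 scale for each gene in each library. It also has the authors' comparison: a log2 fold change, the standard error of that fold, their quotient as a test score, a p-value and an adjusted p-value. Build hg19 and the tools DESeq2 1.12.4, HTSeq 0.6.1 and STAR 2.5.2a appear in the submitters' processing notes with no roles. Annotation and strand setting: not given in the sources used here. The table holds no counts, so depth is unknown and no counting error or count test could be given.

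The rlog values entered limma 3.58.1 under R 4.3.3 with no pseudocount (lmFit, then eBayes with its prior variance following level), over the 14601 genes with a mean rlog of at least 3.32 (10 on the linear scale), with Benjamini-Hochberg adjustment at 0.05. The residual degrees of freedom were 2 and the prior ones infinite, so genes of like level share 1 spread. The scripts were tested on simulated data. In each library, each gene's deviation from its mean over the libraries was fitted with splines on transcript GC content and length. These splines (5 degrees of freedom each) were fitted over 12719 genes and subtracted. GENCODE 29 gave transcripts, positions (GRCh38) and 100-base windows shared between genes; RefSeq GRCh38.p14 gave promoters. Python 3.11.15 with pandas 2.3.3, numpy 2.4.6, scipy 1.17.1 and matplotlib 3.10.9 was used for the rest.

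The titles of the samples gave the groups and the replicate numbers. Of the 33 subunits, 1 is counted but otherwise not reported here. Values in every library are given for the 2 with the largest absolute difference in each group, the active-site subunits, POLR3G, POLR3GL, the POLR2J copies, and subunits they are set against, and of each partner list differences for the 2 largest, with further partners chosen after their values were seen. Members and lists were chosen with earlier results of these data known. Alternatives were each gene's own variance, no trend on level, robust eBayes, other filters, quantile normalisation, median centring, each library left out, a replicate block, the trend removed, a stricter threshold, and the authors' deposited comparison; a fit restricted to the genes with transcript properties was added after seeing the data.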

Additional observations from a re-analysis of the deposited data

How the results depend on the processing

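The count of 18 called subunits was 14 to 18 when 1 library was left out (14 without ARIEL knockdown replicate 2), 17 after quantile normalisation, 15 at an adjusted p of 0.01 and 0 with each gene's own variance. That fit has only 2 residual degrees of freedom and called 0 of 14601 genes, with 4561 at an unadjusted p under 0.05. Over all genes 6488 were called, and 4225 to 6188 with a library left out. Of the partner factors 41 were called, 0 with own variance and 22 to 43 with a library left out. The same-numbered libraries share only a number, which the labels do not explain (correlation of their deviations 0.20 over 14601 genes, from 2 pairs); the replicate block called 23 subunits (17 higher and 6 lower, with POLR1A, POLR2D, POLR3F and TWISTNB newly lower and POLR3B newly higher), 51 partner factors and 7426 genes. Uncalled differences changed sign as follows, and the causes were not tested. With the GC and length trend removed, with or without the block, POLR2B was 0.0002, POLR2J2 -0.0432, POLR2K 0.0577, POLR2M 0.0401, POLR3D 0.0128, TWISTNB 0.0252 and ZNRD1 -0.0095, and the called POLR3G was 0.0086. Quantile normalisation put POLR2J3 at 0.0025 and POLR2K at 0.0058, and median centring put POLR2K at 0.0033. With a library left out, POLR2A ran between -0.0657 and 0.0913, POLR2J2 between -0.0121 and 0.0447, POLR2J3 between -0.0654 and 0.0289, POLR2K between -0.0448 and 0.0399, and POLR3D between -0.0355 and 0.0159. POLR2J2 could not be tested at the filter of 50 on the linear scale. At a threshold of 0.01, 14 subunits passed in the authors' deposited comparison. Depth is unknown, and with 2 libraries a group small differences stay below detection.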
